A study of Mus musculus with 22 samples.

Results

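B lineage cells were examined in dissociated olfactory epithelium (OE), the tissue of the nasal cavity that houses the odour-sensing neurons. They were chosen by read-out: a cell entered when its UMIs (unique molecular identifiers, which count captured RNA molecules) included at least 3 from Cd79a and Cd79b together, which encode the signalling chains of the B cell receptor. Cells in which S100a8 and S100a9, the abundant transcripts of neutrophils, made up 5% or more of the UMIs, or hemoglobin transcripts 10% or more, were left out. This gave 447 B lineage cells among 25185 cells that passed the quality filters (over 500 genes and over 1500 UMIs, of which under 20% mitochondrial), or 1.77%. Of these, 114 came from WT mice and 333 from Upf3b-null mice.

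The study asked how loss of UPF3B, an adaptor protein of nonsense-mediated RNA decay (NMD), which destroys aberrant and some normal transcripts, alters the OE. Upf3b is X-linked, and the animals were male C57BL/6 mice (C57BL/6J in the study's methods) that carried the null allele (Upf3b-/y) or the intact one (Upf3b+/y, WT), with the allele present or absent in every cell of the body. Single-cell libraries (10x Genomics droplets) came from whole OE after removal of dead cells, 4 mice per genotype, 7 to 8 weeks old, and 1 library per mouse. The same genotypes on an Omp-Cre background gave 2 bulk data sets that were searched here for B lineage transcripts, with 3 mice of 8 to 9 weeks pooled per sample in both. In the sorted set, a Cre-activated eYFP reporter marked mature olfactory sensory neurons (mOSNs), which were collected by cell sorting (4 WT and 4 Upf3b-null samples). The study's methods give 2 sorting days with 2 samples per day, and the sorting day was not part of the fits here. In the RiboTag set, ribosomes tagged in Omp-Cre cells were pulled down from whole OE (3 samples per genotype). Cre was driven by Omp, the olfactory marker protein of mature neurons, so neither bulk set was made to capture leukocytes.

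B cells arise in the bone marrow from progenitors that rearrange their immunoglobulin genes with the RAG recombinase. Pro-B cells make the surrogate light chain (VPREB1 or VPREB2 with IGLL1). In the dividing large pre-B cells it pairs with a rearranged heavy chain to form the pre-B cell receptor, standing in for the light chain that has not yet been made. Cells that have replaced it with a true light chain turn on CD20 (Ms4a1), MHC class II and receptors for survival signals before and after they leave the marrow, and antibody-secreting plasma cells later shut most of this programme down. Mucosae such as that of the nose hold B cells and plasma cells.

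The promoters of the surrogate light chain genes are shown because the B lineage cells are divided below by a gate on these genes, and because 2 of them, Vpreb1 and Vpreb2, are near copies. RefSeq windows on GRCm38.p6 run from 250 bases before to 50 bases after each gene start, written 5′ to 3′ on the gene's own strand. Vpreb1 lies at chr16:16869206-16869505 (minus strand), Vpreb2 at chr16:17980315-17980614 (plus strand), Igll1 at chr16:16863936-16864235 (minus strand) and Vpreb3 at chr10:75948050-75948349 (plus strand). Each window covers sequence before the gene and the start of its first exon. Capitals mark the motif matches described after the sequences.
Vpreb1: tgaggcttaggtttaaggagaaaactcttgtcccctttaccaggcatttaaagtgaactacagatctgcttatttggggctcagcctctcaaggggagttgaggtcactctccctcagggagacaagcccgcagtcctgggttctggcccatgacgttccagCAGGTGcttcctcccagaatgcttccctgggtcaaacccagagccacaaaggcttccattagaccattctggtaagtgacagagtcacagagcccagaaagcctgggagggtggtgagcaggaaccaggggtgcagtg
Vpreb2: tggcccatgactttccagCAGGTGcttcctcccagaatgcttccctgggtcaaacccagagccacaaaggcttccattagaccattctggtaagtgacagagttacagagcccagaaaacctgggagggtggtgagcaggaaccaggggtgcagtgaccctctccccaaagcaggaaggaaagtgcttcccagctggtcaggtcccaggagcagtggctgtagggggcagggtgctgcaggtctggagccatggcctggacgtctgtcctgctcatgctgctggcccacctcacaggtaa
Igll1: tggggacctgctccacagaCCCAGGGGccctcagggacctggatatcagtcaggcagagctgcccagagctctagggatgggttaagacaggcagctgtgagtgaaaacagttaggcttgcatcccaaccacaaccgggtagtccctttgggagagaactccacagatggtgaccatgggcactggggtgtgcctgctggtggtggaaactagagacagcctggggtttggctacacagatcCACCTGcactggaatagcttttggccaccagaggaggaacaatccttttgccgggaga
Vpreb3: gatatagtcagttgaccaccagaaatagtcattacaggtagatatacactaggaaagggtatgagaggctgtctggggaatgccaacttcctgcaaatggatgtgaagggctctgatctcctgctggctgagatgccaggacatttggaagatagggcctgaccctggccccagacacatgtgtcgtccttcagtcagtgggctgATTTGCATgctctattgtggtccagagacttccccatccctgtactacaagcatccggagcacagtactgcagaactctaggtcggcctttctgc
Laid on each other at their shared match, the windows of Vpreb1 and Vpreb2 were identical at 153 of 156 bases (98.1%). Whether the counting separated the transcripts of the 2 genes was not tested. The windows of Vpreb1 and Igll1 lay 4970 bases apart. Of 6 motifs searched on both strands, the E-box CAGGTG, a site form of the E2A factors, was found in the windows of Vpreb1 (88 bases before the start), Vpreb2 (232 before) and Igll1 (8 before, on the opposite strand). It was present in 20.2% of all 32851 promoter windows of this length. The octamer ATTTGCAT, bound by OCT factors with which the B cell coactivator POU2AF1 works, was found 45 bases before the Vpreb3 start and in 1.74% of all windows. CCCNNGGG, the core form bound by EBF1, was found 231 bases before the Igll1 start and in 13.7% of all windows. CAAGGGA (5.06% of all windows), CCCAAGGG, which is a special case of CCCNNGGG (1.68%), and the Ets form ACCGGAAG (2.3%) had no match in the 4 windows. A match is a description of letters, not evidence of binding.

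The libraries differed in ways that bear on the number of B lineage cells. WT replicate 1 contributed 56 B lineage cells of 1832 cells (3.06%, exact 95% interval 2.32 to 3.95), WT replicate 2 had 34 of 1444 (2.35%, 1.64 to 3.27) and WT replicate 4 had 24 of 3080 (0.779%, 0.50 to 1.16). WT replicate 3 had 0 of 2791 (exact 95% interval 0 to 0.132%). It was also low in other leukocytes. A leukocyte gate, of cells with at least 3 UMIs of the pan-leukocyte genes Ptprc, Laptm5 and Coro1a, held 3.87% of its cells. In the other WT mice that gate held 12.9% to 20.1%, and in Upf3b-null replicates 1 to 4 it held 15.8%, 17.8%, 20.3% and 31.6%. B lineage cells of Upf3b-null replicates 1 to 4 were 122 of 7157 (1.70%, 1.42 to 2.03), 46 of 1334 (3.45%, 2.54 to 4.57), 88 of 1710 (5.15%, 4.15 to 6.30) and 77 of 5837 (1.32%, 1.04 to 1.65). The intervals cover counting error only. The WT and null ranges overlapped, and within each genotype the highest and lowest mice lay further apart than the genotype means given below.

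The deposited barcodes of the libraries began at different depths. The smallest barcode held 989 UMIs in WT replicate 1, 936 in WT replicate 2 and 900 in Upf3b-null replicate 2, against 1284 to 1802 in the other 5 libraries. In those 3 shallow-floor libraries 101, 45 and 60 further barcodes met the Cd79 rule but held 1500 UMIs or fewer (medians 1149, 1033 and 1163), so in each of the 3 more barcodes that met the rule lay under the filter than above it. Taken over all deposited barcodes, the rule was met by 6.32%, 4.02%, 0.0149% and 0.686% in the WT mice and by 1.66%, 5.84%, 4.60% and 1.19% in the null mice. Above 1802 UMIs, the depth at which every library had begun, the shares were 2.59%, 2.36%, 0 and 0.783% in WT and 1.71%, 2.42%, 4.23% and 1.29% in null mice.

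**Figure D1:**
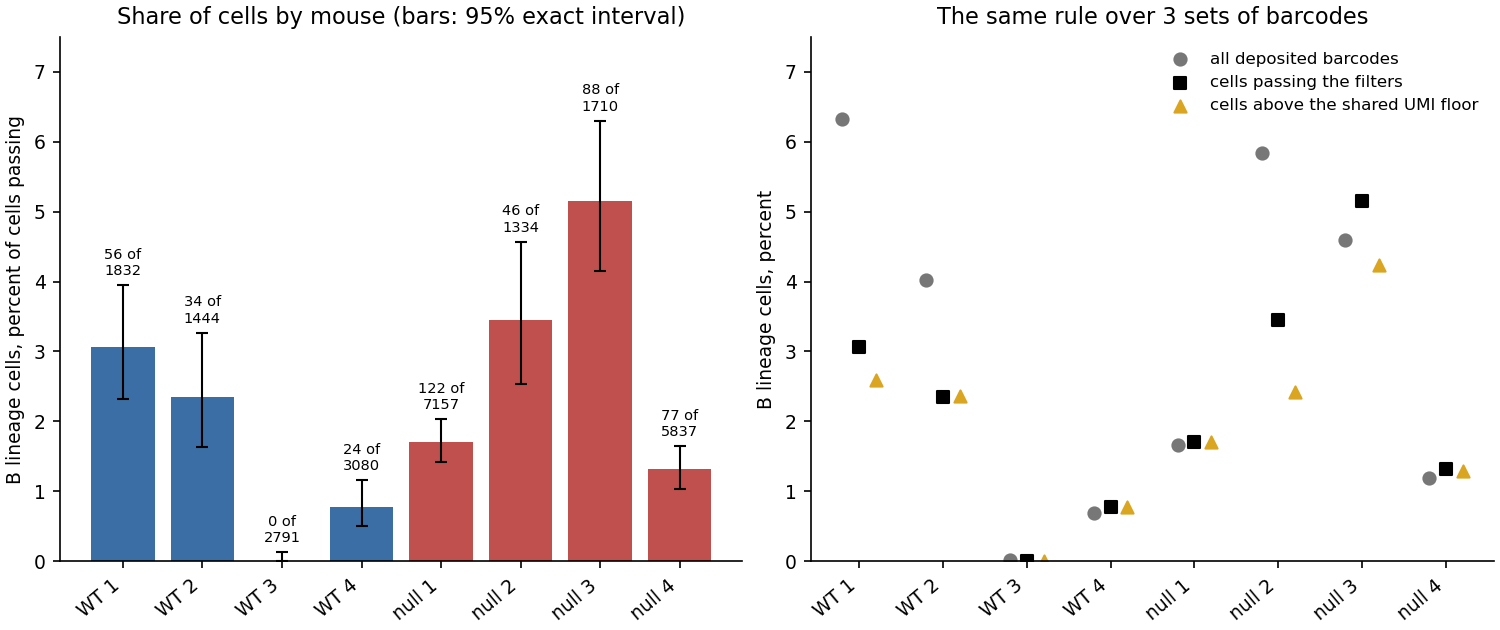
B lineage cells as a percent of cells in each mouse. Left, bars give the share of cells passing the filters with exact 95% intervals and the counts behind them (WT blue, Upf3b-null red); WT replicate 3 held none and Upf3b-null replicate 3 was highest at 5.15%. Right, points give the share by the same rule over all deposited barcodes, over cells passing the filters and over cells above 1802 UMIs; WT replicate 1 moves from 6.32% to 2.59% between the widest and the narrowest set.

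Averaged over mice, B lineage cells were 1.55% ± 1.40 (SD, n = 4) of WT cells and 2.90% ± 1.76 (n = 4) of Upf3b-null cells. The difference of 1.36 percentage points did not exceed the spread between mice (two-sided exact permutation test, p = 0.314, where the smallest p possible was 0.0286). Without WT replicate 3 it was 0.841 points (exact permutation p = 0.543), above 1802 UMIs it was 0.978 points (p = 0.343 by the same exact test), and over all deposited barcodes it was 0.561 points (exact permutation p = 0.686). Among the 3 libraries with shallow floors the null mouse had 3.45% and the WT mice 3.06% and 2.35%, but WT replicate 1 lay above this null mouse over all deposited barcodes (6.32% against 5.84%) and above 1802 UMIs (2.59% against 2.42%). Among the other 5 the null mice had 1.70%, 5.15% and 1.32% and the WT mice 0 and 0.779%, and each null mouse was also above both WT mice over the other sets of barcodes. Counted within the leukocyte gate, B lineage cells were 5.89% ± 6.67 in WT and 8.20% ± 5.81 in null mice (exact permutation p = 0.686). WT replicate 1 was the highest mouse by that count (15.4%). The number of cells in the tissue and their recovery during dissociation cannot be told apart.

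The B lineage label was checked on genes the rule did not use. At least 1 UMI of 14 other B lineage genes was present in 442 of 447 cells (98.9%). The same was true of 18.7% of Omp-gated cells (at least 3 UMIs of Omp), which should lack these genes, and of 21.5% of all other cells. The Omp-gated share ran from 1.34% to 34.8% over the mice, so it is a background that differs between libraries. With each cell thinned to 1500 UMIs the shares were 96.6%, 9.75% and 12.0%. The leukocyte gate (at least 3 UMIs of Ptprc, Laptm5 and Coro1a) was met by 236 of the 447 B lineage cells (52.8%). Just inside the threshold, 85 cells had exactly 3 Cd79 UMIs, and just outside it 135 cells had exactly 2. Ighm, the fourth marker given for these cells, could not be looked at: the single-cell matrices list 27998 genes and none of them is an immunoglobulin gene. Heavy chain class, light chain and the IgM to IgD switch were therefore not analysed in single cells. Over the 28 pairs of libraries, 380 barcodes of passing cells were shared, and in 8 cases a sharing barcode was a B lineage cell.

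Vpreb3, which encodes a surrogate-light-chain-like protein of the endoplasmic reticulum, set the B lineage cells furthest apart from all other cells among genes outside the rule. In UMIs scaled to a total of 1000000 B lineage UMIs per mouse (CPM), Vpreb3 stood at 378, 1809 and 1032 in WT replicates 1, 2 and 4 and at 1568, 1209, 1779 and 750 in Upf3b-null replicates 1 to 4. Its mean in other cells was 20.4 CPM, a difference of 5.27 in mean log2(CPM + 10), and 76.1% of B lineage cells had a UMI of it. It was lowest in WT replicate 1 and the genotypes overlapped. The 20 leading genes by this measure, which are a description of the chosen cells and carry no test, held further known B cell genes. Ms4a1 (CD20) differed by 4.97, Mzb1, a chaperone of immunoglobulin assembly, by 4.55, Ly6d, a surface protein of committed B progenitors, by 4.49, Pou2af1 by 3.90, Fcmr, the IgM receptor, by 3.84, Fcrla by 3.79 and Pax5, the factor that fixes B cell identity, by 3.72. Tnfrsf13c, the receptor for the survival factor BAFF, differed by 3.69, Siglecg and Cd72, both inhibitory receptors, by 3.65 and 3.59, and Spib, an Ets factor of the B lineage, by 3.27. Vpreb1 (4.52) and Igll1 (4.47) stood among them beside Ptprcap, Gm43291, Myl4, Dusp2, Rhoh and Bfsp2.

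By list, 14 of 15 B lineage identity genes, 13 of 20 transcription factors and 9 of 11 antigen presentation genes were more than 1 log2 unit above other cells. Recombination genes were mixed, with 4 of 10 above that mark. Dntt, the polymerase that adds bases at V(D)J joints, ran at 12.4, 164 and 149 CPM in the WT mice and at 54.9, 33.3, 262 and 152 in the null mice. Rag1 was found at 0, 23.5 and 49.8 CPM in WT and 29.5, 16.6, 32.4 and 73.1 in null mice. WT replicate 1 was thus low for both, and its 0 of 161359 UMIs allows up to 18.6 CPM of Rag1. Ebf1, a factor that opens the B cell programme, did not mark these cells in this tissue: it stood at 719 to 1762 CPM in B lineage cells and at a mean of 982 CPM in Omp-gated cells. It is also known as a factor of olfactory neurons. Il7r, the receptor for the main growth factor of mouse B progenitors, was at 49.6, 164 and 112 CPM in WT and 101, 61.0, 115 and 181 CPM in null mice, against 3.21 CPM in other cells.

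**Figure D2:**
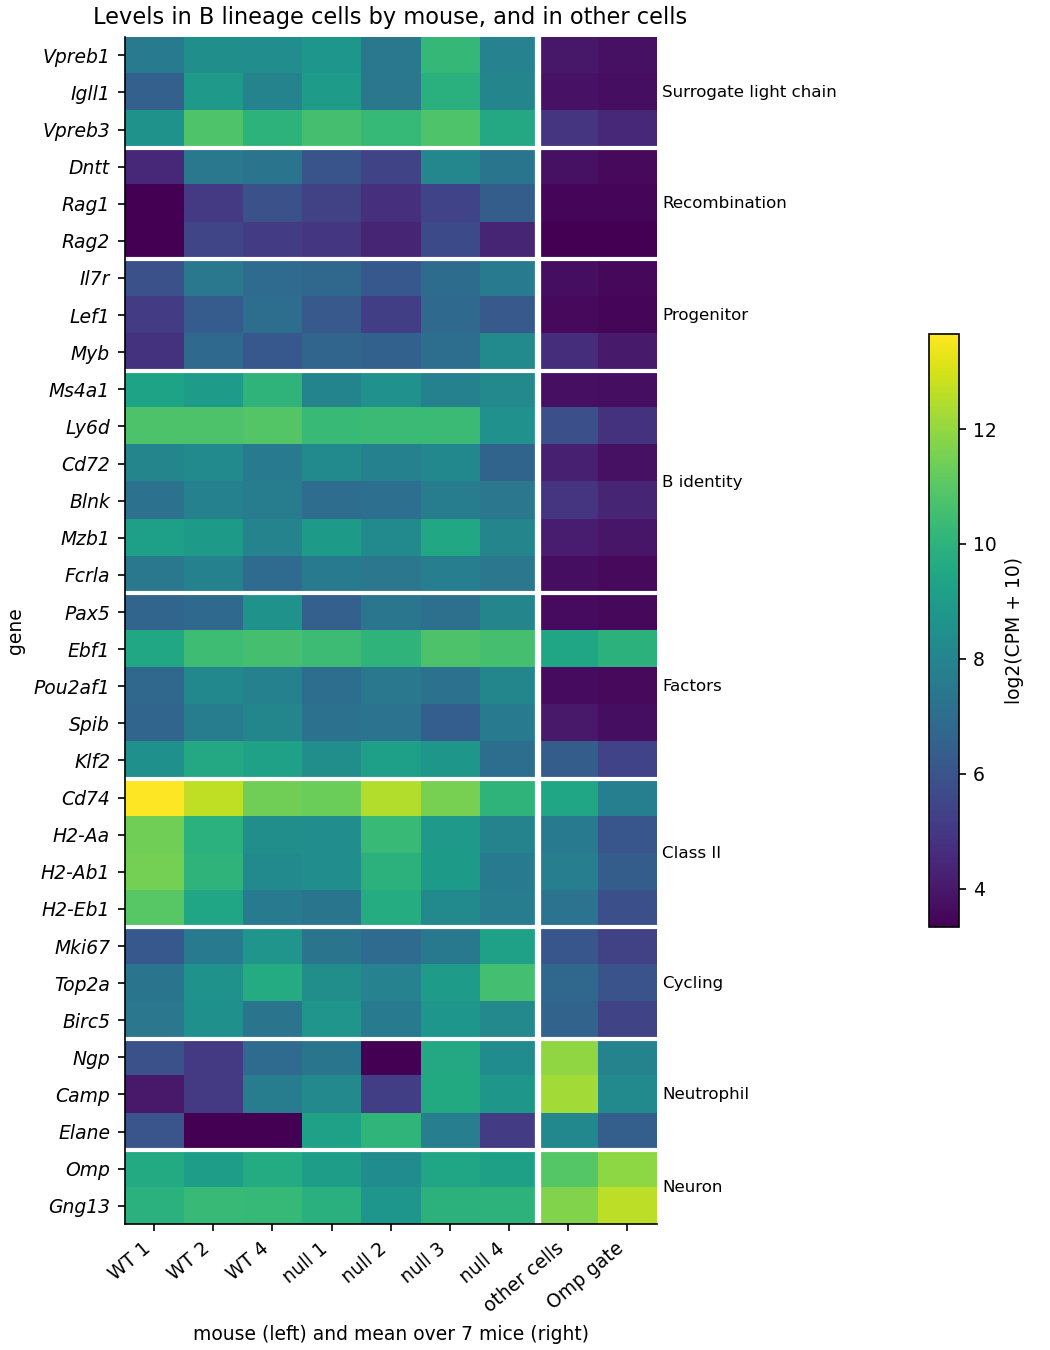
Levels of genes, grouped by role, in the B lineage cells of the 7 mice that had any, beside all other cells and the Omp-gated cells of the same mice (columns; colour, log2 of CPM + 10). Vpreb3, Ms4a1 and Pax5 separate B lineage cells from both reference columns, Ebf1 does not, and the class II genes are brightest in WT replicates 1 and 2 and Upf3b-null replicate 2.

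Signal of other cell types was present in these cells. At least 3 UMIs of the olfactory neuron list were held by 222 of 447 (49.7%), of the neutrophil list without S100a8 and S100a9 by 206 (46.1%), of the macrophage list by 76 (17.0%) and of the T and NK list by 8 (1.79%). Of the 6 T and NK genes in the matrices, 5 had a UMI in these cells, with Nkg7 the most abundant, and Cd3e had 0. The 7 neuron genes summed to between 1081 and 3134 CPM in B lineage cells and to between 10004 and 25262 CPM in Omp-gated cells, with Gng13 the most abundant. The 8 neutrophil genes summed to 266, 129 and 609 CPM in the B lineage cells of WT mice and to 1443, 2218, 2630 and 1599 in those of null mice, so that the genotypes did not overlap in this sum. Of the 7 of these genes that were tested between genotypes, 0 had every null mouse above every WT mouse. In Omp-gated neurons of the same mice the sums were 115, 150 and 1016 CPM in WT and 851, 49.4, 2820 and 2340 in null mice, so in all but Upf3b-null replicate 2 the neurons carried a signal of similar order. In Upf3b-null replicate 2 it was Elane (1070 CPM), a protease of young neutrophils, that made up much of the sum. The tests between genotypes were repeated without the 269 cells that held 3 or more UMIs of the T and NK, macrophage, neuron, sustentacular or stromal list, which kept 2 WT and 3 null mice. They were also repeated, in a choice made after the data were seen, without the 206 cells with neutrophil UMIs, which kept 3 WT mice and Upf3b-null replicates 1 and 2, since replicates 3 and 4 held 83 of 88 and 72 of 77 such cells. The part of such RNA in the results below was not tested otherwise. No doublet caller was run.

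The surrogate light chain divided the B lineage cells. A gate of at least 2 UMIs from Vpreb1, Vpreb2, Igll1 and Dntt held 112 of 447 cells (25.1%), while 16 cells had exactly 1 such UMI and 11 of those inside had exactly 2. A gate of at least 2 UMIs from Mki67, Top2a, Birc5, Cdk1 and Ube2c, all genes of dividing cells, held 184 (41.2%). Both gates together held 77 cells, the surrogate light chain gate alone 35, the cycling gate alone 107, and 228 cells (51.0%) lay in neither. Median depth was 6687 UMIs in cells of both gates, 2211 with the surrogate light chain alone, 3381 with cycling alone and 2224 in neither, so shares of cells with a UMI are not matched for depth and the CPM is given beside them. The classes are ranges of UMI counts, not cell types.

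Genes outside the gates differed between the classes, as a description without a test since the same cells made the classes. Ms4a1 was at 733 CPM in cells of neither gate, where 65.8% had a UMI, at 259 CPM (34.6%) in cycling cells, at 16.8 CPM (6.49%) in cells of both gates, and at 0 in the 35 cells with the surrogate light chain alone, which allows up to 8.57% of such cells to have a UMI. At these depths this limits the cells in which the transcript was captured, not those that express it. Cd74, the invariant chain that escorts MHC class II, was likewise highest in cells of neither gate (8875 CPM), then in cycling cells (1972), and low in cells of both gates (101) and with the surrogate light chain alone (280). H2-Aa stood at 1606, 320, 35.5 and 67.1 CPM over those classes. Fcmr was at 291 CPM in neither gate and 13.1 in both, Klf2, a factor of resting lymphocytes, at 602 and 50.4, and Ly6d at 2444 and 162. Cells were pooled over mice that gave unequal shares of each class: 49 of the 228 cells of neither gate came from WT replicate 1, and 21 of the 35 with the surrogate light chain alone from Upf3b-null replicate 3.

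Lef1 and Myb, genes of progenitors, were highest in the surrogate light chain classes. Lef1, a Wnt pathway factor of pro-B and pre-B cells, was at 157 CPM in cells of both gates and 145 with the surrogate light chain alone, against 34.5 in cycling cells and 11.1 in neither. Myb, a factor of haematopoietic progenitors, followed with 260, 190, 109 and 37.9 CPM. Il7r stood at 148, 168, 158 and 49.0 CPM, and so was as high in cycling cells without the surrogate light chain as in those with it. Vpreb3 (3503 CPM), Ebf1 (3503), Mzb1 (1332) and Blnk (425), an adaptor of pre-B cell receptor signalling, were highest in the pooled cells with the surrogate light chain alone. Rag1 was at 101 and Rag2 at 89.5 CPM in that class, against 31.8 and 24.3 in cells of both gates and 34.7 and 1.58 in neither. Pax5 lay between 126 and 224 CPM.

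**Figure D3:**
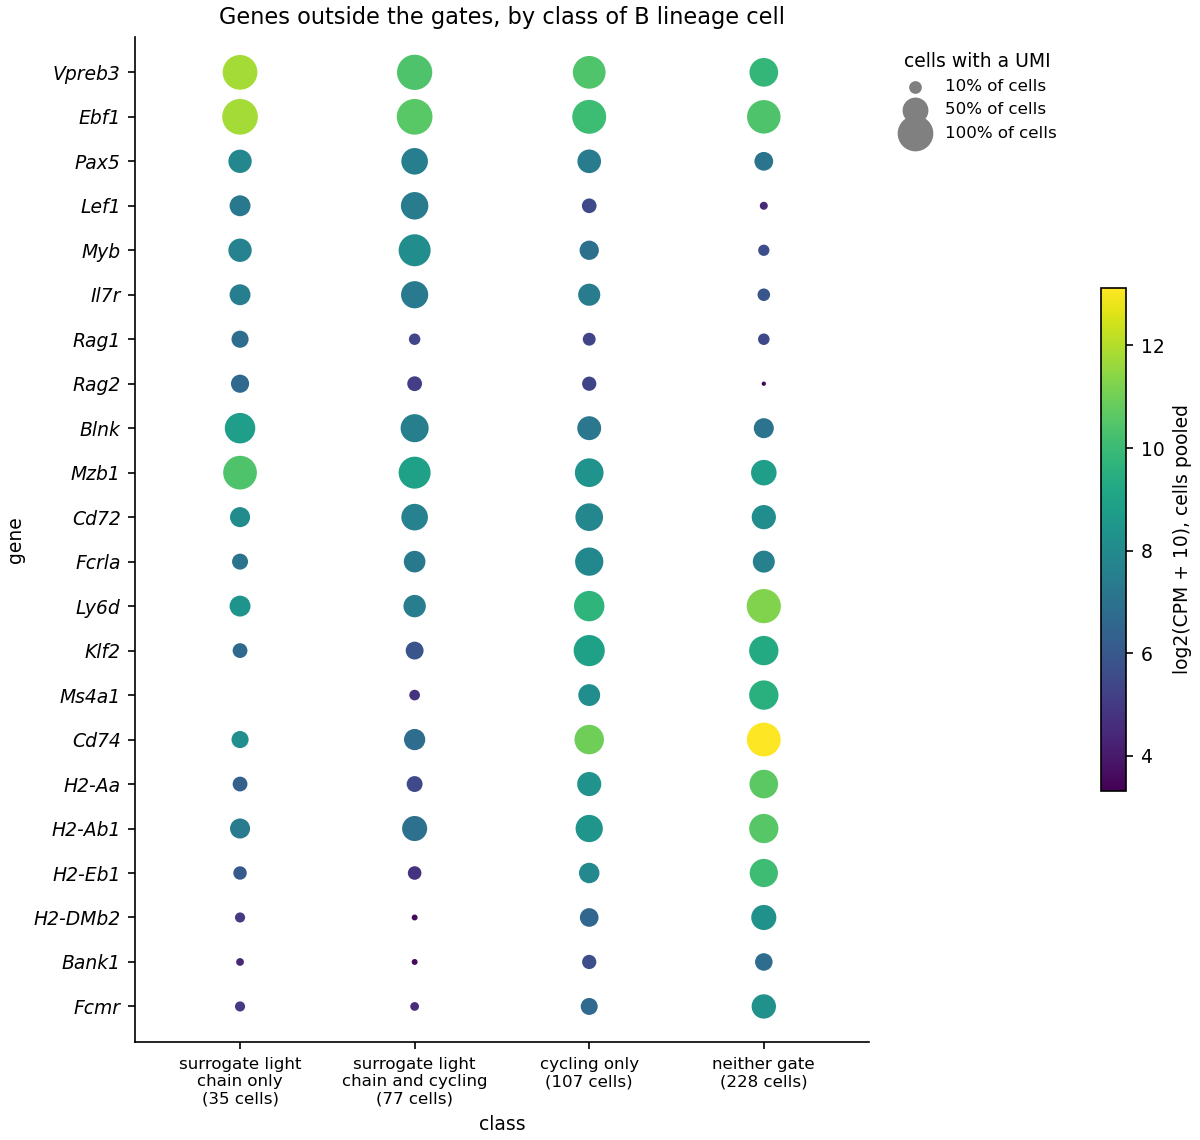
Genes that were not used for the gates (rows) in the 4 classes of B lineage cells (columns). Dot size gives the percent of cells with a UMI and colour the log2 of CPM + 10 with cells of all mice pooled; Ms4a1 and the class II genes are larger and brighter in cells of neither gate than in the surrogate light chain classes, where Lef1 and Myb are largest.

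These differences were also looked at within mice. In all 7 mice Ms4a1, Cd74, H2-Aa, Fcmr, Klf2 and Ly6d were lower inside the surrogate light chain gate than outside it, and Lef1, Myb and Ebf1 were higher. The gap for Ly6d was small in WT replicate 2 (1631 CPM on 7 cells inside, 1803 outside). Values are given for the 3 mice with the most cells in the gate (25, 41 and 31 in Upf3b-null replicates 1, 3 and 4). Ms4a1 was at 0, 9.12 and 29.0 CPM inside the gate and at 340, 480 and 596 CPM outside it. Cd74 was at 92.2, 160 and 116 CPM inside and 3560, 6272 and 2220 outside, while Lef1 was at 161, 169 and 106 CPM inside and 26.2, 27.6 and 12.3 outside. Myb was at 192, 178 and 372 CPM inside and 58.2, 60.6 and 184 outside. Vpreb3 was higher inside in these 3 (1882, 2299 and 851 against 1449, 1152 and 621 CPM) and in 5 of 7 mice in all, but lower in WT replicate 2 (1433 against 1926) and Upf3b-null replicate 2 (1024 against 1236). Mzb1 and Blnk were likewise higher inside in 5 of 7 mice, Rag2 was higher inside in 4 and lower in 2, and Rag1 showed no common order (7.68, 36.5 and 72.5 inside, 37.8, 27.6 and 73.8 outside).

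The share of B lineage cells in the surrogate light chain gate varied from mouse to mouse. It was 3.57% in WT replicate 1 (2 of 56 cells), 20.6% in replicate 2 (7 of 34) and 16.7% in replicate 4 (4 of 24). Among null mice it was 20.5% (25 of 122), 4.35% (2 of 46), 46.6% (41 of 88) and 40.3% (31 of 77). Upf3b-null replicates 3 and 4 were highest, and replicate 2 lay with the lowest WT mouse. In Omp-gated neurons, which should lack these genes, the gate was met by at most 0.630% of cells in any mouse. After thinning each cell to 1500 UMIs the shares were 3.57%, 14.7% and 16.7% in WT and 17.2%, 4.35%, 42.0% and 22.1% in null mice. The means of 13.6% ± 8.91 (n = 3) in WT and 27.9% ± 19.3 (n = 4) in null mice differed by 14.3 points, within the spread between mice (two-sided exact permutation test, p = 0.286, 0.429 after Benjamini-Hochberg adjustment over 3 gates, smallest possible p 0.0286).

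The cycling share was 10.7%, 41.2% and 25.0% in WT replicates 1, 2 and 4 and 50.8%, 21.7%, 37.5% and 68.8% in Upf3b-null replicates 1 to 4. Thinned to 1500 UMIs, it was 7.14%, 32.4% and 20.8% in WT and 41.8%, 8.70%, 29.5% and 55.8% in null mice. The genotypes overlapped: Upf3b-null replicate 2 was below 2 of the 3 WT mice. In Omp-gated neurons the same gate was met by 0.344%, 0 and 9.28% in WT and by 2.65%, 0, 16.7% and 17.4% in null mice. Omp-gated cells thus met it most often in Upf3b-null replicates 3 and 4. Whether this was stray RNA from other cells, and its part in the cycling share, was not tested. The means were 25.6% ± 15.2 (n = 3) and 44.7% ± 20 (n = 4), a difference of 19.1 points (exact permutation p = 0.257, adjusted 0.429). A gate for mature B cells (Ighd and Fcer2a) rested on Fcer2a alone and held 4 cells (0.895%), with means of 1.19% in WT and 0.868% in null mice (exact permutation p = 0.886).

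**Figure D4:**
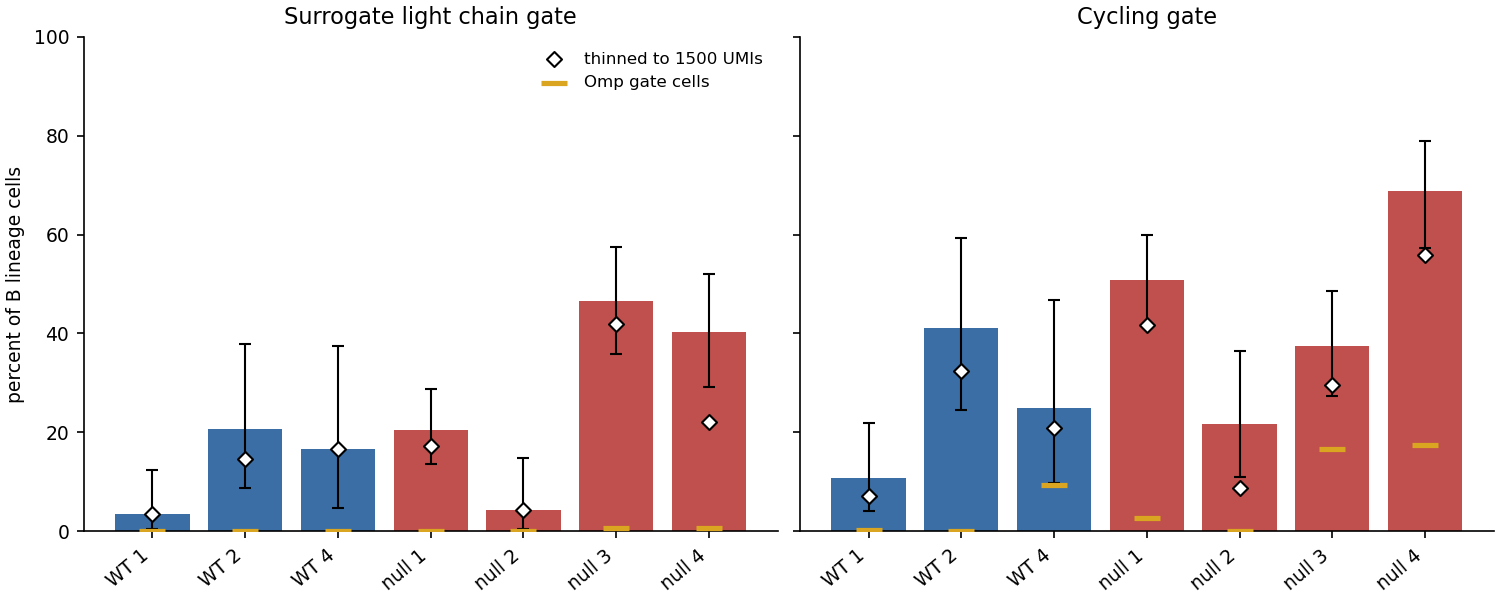
Percent of B lineage cells in the surrogate light chain gate (left) and the cycling gate (right) in each of 7 mice. Bars with exact 95% intervals give all UMIs (WT blue, Upf3b-null red), diamonds the share after thinning to 1500 UMIs, and gold dashes the share of Omp-gated neurons that met the same gate; in both gates null replicate 2 lies below the other null mice, and the gold dashes reach 17.4% in the cycling gate of null replicate 4.

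A few cells held transcripts of plasma cells, in differing amounts. Jchain, the joining chain of secreted IgA and IgM, had 3302 UMIs in all B lineage cells, and 3280 of them lay in 4 cells, all from null mice (726 of 3966 UMIs and 1014 of 3836 in 2 cells of replicate 1, 1487 of 10331 in a cell of replicate 3 and 53 of 5018 in a cell of replicate 4). Jchain RNA was not confined to null tissue. In Omp-gated cells it was at 0, 322 and 0.736 CPM in WT replicates 1, 2 and 4. In those of Upf3b-null replicates 1 to 4 it was at 4.16, 0.392, 17.5 and 89.6 CPM. The 4 cells held 51, 6, 26 and 21 UMIs of Mzb1 and 0, 0, 0 and 1 of Ms4a1. Of Xbp1 they held 5, 12, 28 and 1 UMIs, and of Sdc1 0, 5, 1 and 2. These genes thus did not mark the 4 cells alike, and the cell of replicate 4 was low in Jchain and Xbp1. With Cd79 as the entry gene, plasma cells that have shut it down were not selected, so their number was not measured here.

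Upf3b itself was depleted in the null libraries. Over all cells it stood at 58.3, 63.1, 76.7 and 88.5 CPM in the WT mice and at 0.479, 0.211, 1.24 and 0.990 in the null mice. Within B lineage cells 5, 3 and 8 UMIs were found in WT replicates 1, 2 and 4, and 0, 0, 1 and 1 in the null mice, so the labels held in the B lineage cells despite the low counts. Upf3a, its paralogue, was at 24.8, 35.2 and 62.2 CPM in WT and 46.4, 38.8, 62.4 and 59.5 CPM in null B lineage cells (log2 fold 0.49, SE 0.53), and the genotypes overlapped.

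No gene passed the limit between genotypes in B lineage cells. UMIs were summed per mouse and 2824 genes tested with edgeR in 3 WT and 4 null mice, since WT replicate 3 had no B lineage cell; 0 had an adjusted p under 0.05 (0% of genes tested), 96 had an unadjusted p under 0.05, and DESeq2 gave 0 and 74. With the replicate number as a block, which keeps 6 mice and drops Upf3b-null replicate 3, 1 gene passed (Gm8730, log2 fold 2.34, edgeR adjusted p = 0.00921). The sums ran from 80399 to 473964 UMIs per mouse, which limits the precision for genes of low level. With no filter on low counts 5 genes passed, Upf3b (log2 fold -4.59, edgeR adjusted p = 0.00545) and Car2 (2.87, edgeR adjusted p = 0.0288) among them.

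The 5 genes with the lowest p in each direction are given as values that did not pass (edgeR adjusted p = 0.999 for each). Car2, carbonic anhydrase 2, was at 6.20, 23.5 and 24.9 CPM in WT and at 67.5, 77.6, 142 and 122 CPM in null mice (log2 fold 2.72, SE 0.61). All null mice were above all WT mice, but the WT values rest on 1, 2 and 2 UMIs, and Omp-gated neurons of the same mice held 75.7 to 208 CPM in WT and 118 to 661 in null mice. Gm8730, a predicted gene, was at 217, 94.0 and 112 CPM in WT and at 1483, 288, 372 and 590 CPM in null mice (log2 fold 2.22, SE 0.56), and in Omp-gated neurons at 22.4, 19.2 and 52.7 against 333, 20.4, 105 and 161 CPM. Its order over the mice was thus similar in neurons. Arntl, a core gene of the circadian clock, was at 18.6, 23.5 and 49.8 CPM in WT and at 116, 66.5, 97.3 and 94.7 CPM in null mice (1.75, SE 0.48), and at 3.52 to 7.20 CPM in Omp-gated neurons of any mouse. Mif (0.89, SE 0.25), a cytokine, and Ramp1 (1.89, SE 0.54), a receptor partner, were also higher in every null mouse than in every WT mouse. In these data every null mouse lay above every WT mouse for 2.23% of the genes tested and below for 2.02%.

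On the lower side, Ms4a1 stood at 620, 505 and 1045 CPM in WT and at 247, 360, 222 and 279 CPM in null mice (log2 fold -1.35, SE 0.34). Every null mouse lay below every WT mouse. The same order within the libraries with shallow floors (360 against 620 and 505) and the others (247, 222 and 279 against 1045) follows from this. It is therefore not a separate check on the library sets. Outside the cycling gate the log2 fold of Ms4a1 was -0.58 and outside the surrogate light chain gate -0.93. The part of the gate shares in its level was not tested further. Bcl2, the survival protein, was at 105, 94.0 and 174 CPM in WT and 25.3, 44.4, 32.4 and 46.0 CPM in null mice (-1.70, SE 0.44) and did not overlap, on 8 to 17 UMIs per mouse. Ctss, the cathepsin that trims the class II invariant chain, was at 273, 458 and 236 CPM against 192, 155, 152 and 81.2 CPM (-1.11, SE 0.33). Adcy3 (-1.17, SE 0.34), the adenylate cyclase of odour signalling, is a neuronal transcript, at 245 to 667 CPM in Omp-gated cells and 38.8 to 141 in B lineage cells. Evl (-1.19, SE 0.39), an actin regulator, overlapped between genotypes.

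No member of a gene list passed the limit, and the lists are described by their fitted signs and medians, with no test. All 9 tested antigen presentation genes were fitted lower in null mice (median log2 fold -1.36), beside 1310 of all 2824 genes and a median of 0.03. Cd74 was at 12934, 6590 and 2711 CPM in WT and at 2608, 5611, 2927 and 1042 CPM in null mice, and H2-Aa at 2721, 952 and 336 against 327, 1231, 469 and 238 CPM. Class II levels followed the library sets: the highest 3 mice for both genes were WT replicates 1 and 2 and Upf3b-null replicate 2, the libraries with shallow floors, and among the rest WT replicate 4 lay within the null range. For none of the 9 genes were the null mice all below the WT mice, and without WT replicate 1 the median was -0.38.

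All 22 cell cycle genes were fitted higher in null mice (median 0.85, and 0.44 without WT replicate 1). Top2a, the topoisomerase of dividing cells, was at 149, 388 and 808 CPM in WT and 333, 233, 494 and 1497 in null mice, an overlap. Ccnb1, cyclin B1, was at 43.4, 70.5 and 12.4 CPM in WT and 154, 72.1, 167 and 86.6 CPM in null mice (1.53, SE 0.49), and it and Mcm5, a helicase subunit of replication, were the 2 of 22 for which all null mice exceeded all WT mice, as they did for 2.23% of all genes tested. The median was 0.27 outside the cycling gate, whose genes are all on this list. It was 0.02 without the cells of the 5 lists of other types, and 0.38 without the cells with neutrophil UMIs. Those last sets also lost mice with fewer than 10 cells left. The former lost WT replicate 4 and Upf3b-null replicate 4, and the latter Upf3b-null replicates 3 and 4. The loss of cells and the loss of mice were not separated. The 7 tested neutrophil genes were all fitted higher (median 2.44) and the 5 neuron genes all lower (-0.39). In neither list did any gene separate all null mice from all WT mice.

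The surrogate light chain genes tested were Vpreb1, Igll1 and Vpreb3, all fitted higher (median 0.88). Vpreb1 was at 174, 341 and 323 CPM in WT and 426, 166, 1178 and 227 CPM in null mice, and Igll1 at 80.6, 458 and 236 against 500, 161, 923 and 252 CPM. For both, Upf3b-null replicate 3 was the highest mouse and replicates 2 and 4 lay below the highest WT mouse, and without Upf3b-null replicate 3 the median was 0.18. Of 11 B lineage identity genes 2 were fitted higher and 9 lower (median -0.28), of 18 transcription factors 10 higher and 8 lower (0.05), of 4 IL-7 receptor and progenitor genes 1 higher and 3 lower (-0.59) and of 6 homing and survival genes 2 higher and 4 lower (-0.69). Every null mouse lay below every WT mouse for Ly6d (1723, 1762 and 1878 CPM in WT, 1241, 1303, 1323 and 365 in null mice) and Ms4a1, 2 of 11 identity genes. The same held for Bcl2 and for Cd55, a homing and survival gene, beside 2.02% of all genes tested. No gene of these lists had every null mouse above every WT mouse. The 2 tested recombination genes split (0.19), 3 plasma cell genes were fitted higher (0.33), and 2 interferon-stimulated genes were fitted lower (-0.34). On the plasma cell list, Mzb1 was level in mean CPM (429 in WT, 433 in null mice), and nearly all Jchain UMIs lay in 4 cells of null mice.

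No NMD gene in the B lineage cells passed the limit, and Upf3b itself was below the minimum of counts for that test. Of 7 NMD factors tested, 6 were fitted higher and 1 lower (median 0.49), and of 13 genes known or listed as NMD substrates 9 were higher and 4 lower (0.29). Snhg6, a spliced noncoding RNA that hosts a small nucleolar RNA, was at 62.0, 35.2 and 37.3 CPM in WT and 112, 233, 84.9 and 146 CPM in null mice (log2 fold 1.63, SE 0.51, edgeR adjusted p = 0.999), without overlap. It did not overlap in Omp-gated cells of the same mice either (40.1, 56.5 and 52.4 CPM in WT, 126, 157, 79.7 and 113 in null mice). Atf4, the stress factor, was at 93.0, 153 and 124 CPM in WT and 160, 250, 165 and 171 in null mice (0.67, SE 0.35), also without overlap, while in Omp-gated cells the genotypes overlapped (146 to 213 against 146 to 304 CPM). These were the 2 of 13 substrates in which all null mice lay above all WT mice, beside 2.23% of all genes tested. Srsf3 and Srsf5, splicing factors whose poison exons make NMD substrates, were level (0.04 and -0.02), although a gene count does not separate such isoforms. Mean CPM was higher in null mice for Srsf6 (168 in WT, 203 in null), Srsf7 (246 and 292) and Tra2b (257 and 330). It was not for Srsf2 (442 and 438) and Tra2a (148 and 131), and the genotypes overlapped for each.

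**Figure D5:**
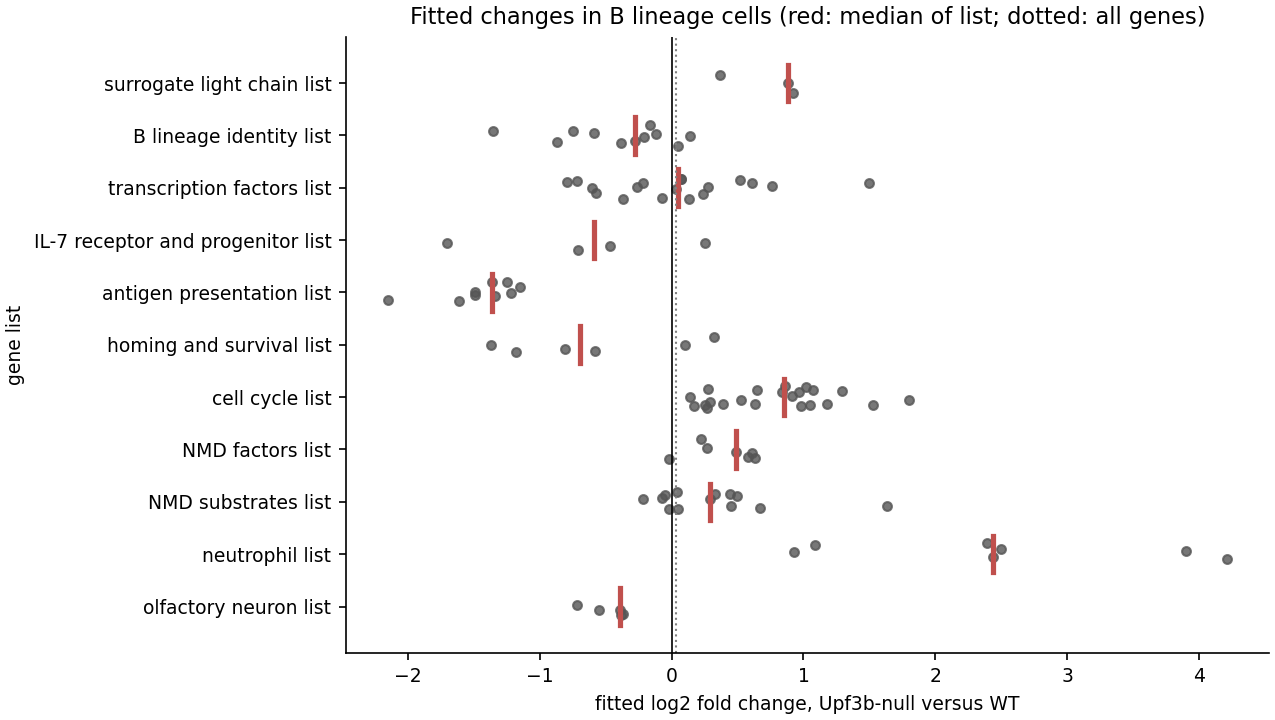
Fitted log2 fold changes of listed genes in B lineage cells, Upf3b-null versus WT (3 WT and 4 null mice). Each point is a gene, the red bar the median of its list and the dotted line the median of all 2824 genes (0.03); the antigen presentation genes all lie below 0, the cell cycle and neutrophil genes all above, and no point passed the limit of the test.

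B lineage transcripts were also found in the bulk libraries, where fewer cells of a type and less RNA per cell cannot be told apart. Omp was found in every sample, at 3763 to 3992 counts in the sorted and 2980 to 4244 in the RiboTag set. In the sorted set this count hardly moved while the libraries ran from 1216784 to 3264827 counts, so the CPM of Omp was highest in the shallowest libraries. The RiboTag count was also nearly fixed, at 4176 to 4244 in libraries of 5810873 to 7542665 counts. It was 2980 in the library of 2691023 counts. In the sorted mOSN samples Cd79a had 8, 16, 4 and 3 counts in WT and 5, 33, 187 and 7 in null samples, and Ighm had 5, 2, 4 and 0 against 2, 17, 62 and 1. Upf3b-null replicate 3 was the highest for both, also per depth (54.9 CPM of Cd79a, against 1.80 to 12.6 in the other null samples and 2.58 to 5.98 in WT). Of 30 transcripts of 26 genes in the receptor, surrogate light chain, identity and plasma cell lists, 7 passed the filter on low counts and 0 passed the limit, where 0.225% of all 11560 transcripts did. All 7 were fitted higher (median log2 fold 1.41). They belonged to 6 genes (Igkc, Jchain, Xbp1, Ighg2b, Ighg2c and Igha), so neither Cd79a nor any identity or surrogate light chain gene was tested.

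Markers of several other cell types were high in the same sorted samples. The 7 neutrophil genes summed to 325, 278, 241 and 238 CPM in WT and to 205, 1161, 2086 and 276 CPM in null samples, with Ltf the most abundant. The macrophage genes summed to 64.7, 49.6, 27.8 and 63.8 CPM against 55.0, 291, 247 and 72.5, led by C1qb, and the stromal genes to 512, 474, 441 and 416 against 214, 1040, 875 and 257, led by Col1a1. Upf3b-null replicates 2 and 3, which were highest for the B lineage transcripts, were thus highest for these lists as well. Genes of sustentacular cells did not share this order. Cyp2g1 was at 214, 609, 730 and 1017 CPM in Upf3b-null replicates 1 to 4, and Sec14l3 and Cyp2a5 were also highest in replicate 4. Ermn was highest in replicate 3 (84.5 CPM). All 7 neutrophil, 4 macrophage and 3 stromal transcripts tested were fitted higher (medians 1.77, 1.67 and 0.47), as were the 4 of sustentacular cells, the supporting cells of the OE (0.99), while of 8 neuronal transcripts 2 were fitted higher and 6 lower (-0.33) and both erythroid transcripts tested were fitted lower (-0.58). None of these passed the limit, and their part in the B lineage values was not tested. Counts of Omp and of Stoml3 (2443 to 2761) hardly moved with library depth, so the neuronal signs are not read as a change in neuronal RNA.

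Antibody transcripts showed the same sample on top. Igha, the IgA heavy chain, had 333, 133, 50 and 42 counts in WT and 127, 756, 1066 and 60 in null sorted samples (log2 fold 1.41, edgeR adjusted p = 0.377, and 0.92 without Upf3b-null replicate 3), and Igkc, the kappa light chain, had 129, 67, 24 and 24 against 84, 289, 431 and 45 (1.33, edgeR adjusted p = 0.328). Ighg2c, an IgG heavy chain, had 16, 1, 2 and 4 against 10, 86, 177 and 18 counts (3.07, edgeR adjusted p = 0.227, DESeq2 adjusted p = 0.0196). For each, Upf3b-null replicates 3 and 2 were highest, also in CPM. In the other 2 null samples Igha was at 45.7 and 27.9 CPM (WT 36.2 to 120), Igkc at 30.2 and 20.9 (WT 19.7 to 46.6) and Ighg2c at 3.60 and 8.36 (WT 0.374 to 5.77), so they lay within, below or above the WT range depending on the gene. In the RiboTag samples the fitted folds were below 0: Igkc had 533, 336 and 276 counts in WT and 220, 234 and 33 in null samples (-1.24, edgeR adjusted p = 0.965) and Igha 1206, 756 and 431 against 381, 494 and 301 (-0.71, and -0.22 without WT replicate 1). Vpreb3 had 39, 51 and 46 against 32, 32 and 0 counts, the last in a library of 2691023 counts where the others had 5810873 to 7542665. Of 19 listed transcripts tested in that set 6 were fitted higher and 13 lower (median -0.55), and 0 passed (0% of 14216 transcripts, of which 202 had an unadjusted p under 0.05, while DESeq2 called 16). The 2 sets were fitted apart, and the difference between them was not tested.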

How the data were processed

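Each single-cell library was a deposited matrix of UMI counts per gene and barcode that the authors made with Cell Ranger on mm10 (version 2.0 in their methods, 2.1.1 in their list of tools). The deposited bulk tables held read counts per transcript, made by the authors with STAR 2.5.2b and featureCounts on Ensembl release 90; 22646 of 23010 transcripts matched GENCODE vM21 for gene names. Cells were kept by the study's limits of over 500 genes and over 1500 UMIs. The methods print a mitochondrial limit of 0.2%; 0 of the 25185 cells kept here lay under it, so it was taken as a fraction and 20% was used. The study's removal of multiplets by lineage markers was not applied. The mouse was the replicate: UMIs of B lineage cells were summed per mouse with at least 10 such cells.

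Shares were compared by two-sided exact permutation tests (70 assignments of 8 mice, 35 of 7; SciPy 1.17.1). Genes were tested with edgeR 4.0.16 quasi-likelihood fits (TMM, filterByExpr, robust) in R 4.3.3, with Benjamini-Hochberg adjustment over all genes and a limit of 0.05; DESeq2 1.42.0 was an alternative, and limma 3.58.1 was loaded by edgeR. The fits were tested on simulated counts with 200 features changed by 1.5 log2 units. Of these, 32.5% were recovered in the B lineage fit, 66.5% in the sorted mOSN fit and 14.5% in the RiboTag fit. A count of 0 called therefore leaves room for changes of that size. CPM are UMIs or reads scaled to a total of 1000000, and 10 was added before logs of CPM. A count of 0 was given a limit of 3 counts. In the B lineage sums, deviations of same-numbered mice from their genotype means correlated at r = 0.22, 0.11 and 0.65 for replicates 1, 2 and 4. Mice of different numbers were not compared, so these values do not show that the numbers are a pairing. The blocked count is given beside the main count, and the labels give no reason for a pairing. Genes were named by a rule: the listed genes, the 5 lowest p in each direction as no gene passed, and the 20 leading genes. Some listed genes are not in the matrices (the immunoglobulin genes, Trac, Trbc2, Gas5, Snhg1, Snhg5, Snhg8, Snhg15, Zfas1). For 1 of the listed genes, the values are not reported here. The cell rule, the members and the lists were chosen with earlier results of these data known. Alternatives covered the rule, depth, gates, filters, tools and single mice.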

Additional observations from a re-analysis of the deposited data

Results flagged for a closer look

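Of 66 groups of 4 libraries that were looked at, 5 had a highest or lowest library far from the rest, measured as its gap to the nearest library over the range of the group; chance gives about 1 in 20. In the B lineage cells of null mice, Ly6d in Upf3b-null replicate 4 (365 CPM, against 1241 to 1323 in the others) had a ratio of 0.914, and Mki67 in the same mouse (593 CPM, against 111 to 170) a ratio of 0.878. That mouse also had the highest share of cells in the cycling gate (68.8%) and the deepest B lineage cells (median 3819 UMIs).

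In the sorted mOSN samples, Ighg2b in Upf3b-null replicate 3 (114 CPM) had a ratio of 0.938 and Rag1 in the same sample (22.3 CPM) a ratio of 0.926. Igha in WT replicate 1 (120 CPM) had a ratio of 0.839. Cd79a in Upf3b-null replicate 3 was at 54.9 CPM, against 1.80 to 12.6 CPM in the other null samples.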

How the results depend on the processing

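Over single mice left out, the difference in B lineage share ran from 0.61 (without Upf3b-null replicate 3) to 1.89 points, the surrogate light chain gate from 8.09 to 22.2, the cycling gate from 11.1 to 26.9, and the Ighd gate from -0.918 to 0.868, where it changed sign without WT replicate 1 (0.868). The Ighd gate also changed sign, to 1.04, with 5 or more Cd79 UMIs; it had no cell at 3 UMIs. The causes were not tested. No share passed its limit under any alternative. The replicate block, an exact sign-flip test over pairs, gave 3 of 4 pairs higher in null mice for the share (1.36, p = 0.50); with a smallest possible p of 0.125 for the share and 0.25 for the gates, no blocked test of a share could pass.

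Genes called in B lineage cells went from 0 to 5 with no filter on low counts (Gm8730 and Car2 higher, Olfr1112, Upf3b and Olfr53 lower) and to 1 with the replicate block, and stayed at 0 without any single mouse (0 to 0). Olfr1112 rested on 13 UMIs of WT replicate 2 alone and Olfr53 on 12 UMIs of WT replicate 1 alone. Both had 0 UMIs in the B lineage cells of every other mouse, WT mice included, so neither call shows a difference between genotypes. In sorted mOSN RNA 26 became 210 with DESeq2, 43 with no filter, 15 with the replicate block and 12 to 433 when a library was left out (433 without Upf3b-null replicate 1). In RiboTag RNA 0 became 16 with DESeq2 and 0 to 17 when a library was left out (17 without Upf3b-null replicate 3). There, the log2 folds of Ighg2b (-2.21 to 0.21) and Jchain (-1.52 to 0.10) changed sign when WT replicate 1 was left out (0.21 and 0.10). Same-numbered bulk samples did not deviate together (r from -0.46 to 0.00).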
